A study of Mus musculus with 9 samples.

Results

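Expression of 9 genes of plasminogen activation and clotting, including inhibitors and receptors, was examined in mouse left ventricle after myocardial infarction (MI). The genes are Plau, Plat, Plaur, Serpine2, F2r, F3, F13a1, Tfpi and Thbd, taken by symbol from a count table of 55367 symbols. All 9 were present and passed the filter on low counts, among 15138 genes tested. There were 3 groups of 3 libraries each: sham surgery, MI, and MI with a treatment named BPD (MI+BPD), with tissue at day 14 after MI. The labels give sham no day of its own, and they leave the abbreviation BPD unexplained, with no dose. They name no strain, sex, age or allele and do not say whether each library is 1 animal, so p-values measure the spread between these libraries, which may be technical. The ventricle samples included the infarct core and the tissue around it, and sham hearts have no infarct. Library totals ran from 14451410 to 19269072 reads.

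Plasmin is the protease that dissolves fibrin clots and also cuts extracellular matrix. It is made from plasminogen, a liver protein, by the activators urokinase (Plau) and tissue-type plasminogen activator (Plat), and serpin inhibitors such as Serpine2 block these activators. Clotting starts when tissue factor (F3) meets its plasma ligand and ends with thrombin, which makes fibrin and signals to cells by cutting the receptor encoded by F2r. Tissue factor pathway inhibitor (Tfpi) and thrombomodulin (Thbd) restrain the cascade on vessel walls, and factor XIII (F13a1) crosslinks fibrin.

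In MI against sham, plasminogen activators, Serpine2 and the thrombin receptor rose, while tissue factor and its inhibitor fell relative to other genes. The urokinase receptor also rose, but close to the threshold (edgeR adjusted p = 0.0461) and with overlapping groups. Of the 9 genes 5 rose, 2 fell and 2 did not pass an adjusted p under 0.05 in edgeR, and 7 did not overlap between the groups. Among all genes tested 68.9% were called (37% higher and 31.9% lower), 71.5% had an unadjusted p under 0.05 and 74.4% did not overlap, so the members' share is near the background. Their median log2 change was 1.14, against 0.07 over all genes tested. Against MI, none of the 9 passed in MI+BPD.

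Several facts of the libraries bear on every comparison with sham. Mitochondrially encoded genes made up 34.8% ± 0.405 of sham reads, 13.8% ± 3.78 of MI reads and 20.3% ± 4.65 of MI+BPD reads (SD over 3 libraries). The 9 cardiomyocyte markers, all of which fell in MI, summed to between 80830 and 85062 CPM in sham (counts scaled to library size, with trimmed-mean factors, TMM), 19032 to 32738 in MI and 31111 to 46482 in MI+BPD. All 8 fibroblast markers rose in MI, from summed levels of 1094 to 1245 CPM in sham to 12118 to 16749 in MI and 16647 to 18149 in MI+BPD. No marker of either list was at 0 in any group. In bulk tissue, fewer cells of a type and less RNA per cell cannot be told apart, and the part of these shifts in the results below was not tested. MI 1 and MI+BPD 1 held the highest levels of 4 mesothelial markers within their groups (184.7 and 74.4 CPM summed, against 10.5 to 42.9 in the other infarct libraries). MI 2 was the library with hepatocyte transcripts. The scaling also matters: with library totals in place of TMM factors, the median log2 change of all genes in MI against sham moved from 0.07 to 0.81. The genes called higher and lower went from 5594 and 4835 to 10488 and 1765, and the members from 5 and 2 to 6 and 0. In MI+BPD against sham they went from 4816 and 4202 to 9131 and 1383, and the members from 6 and 2 to 6 and 0.

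**Figure D1:**
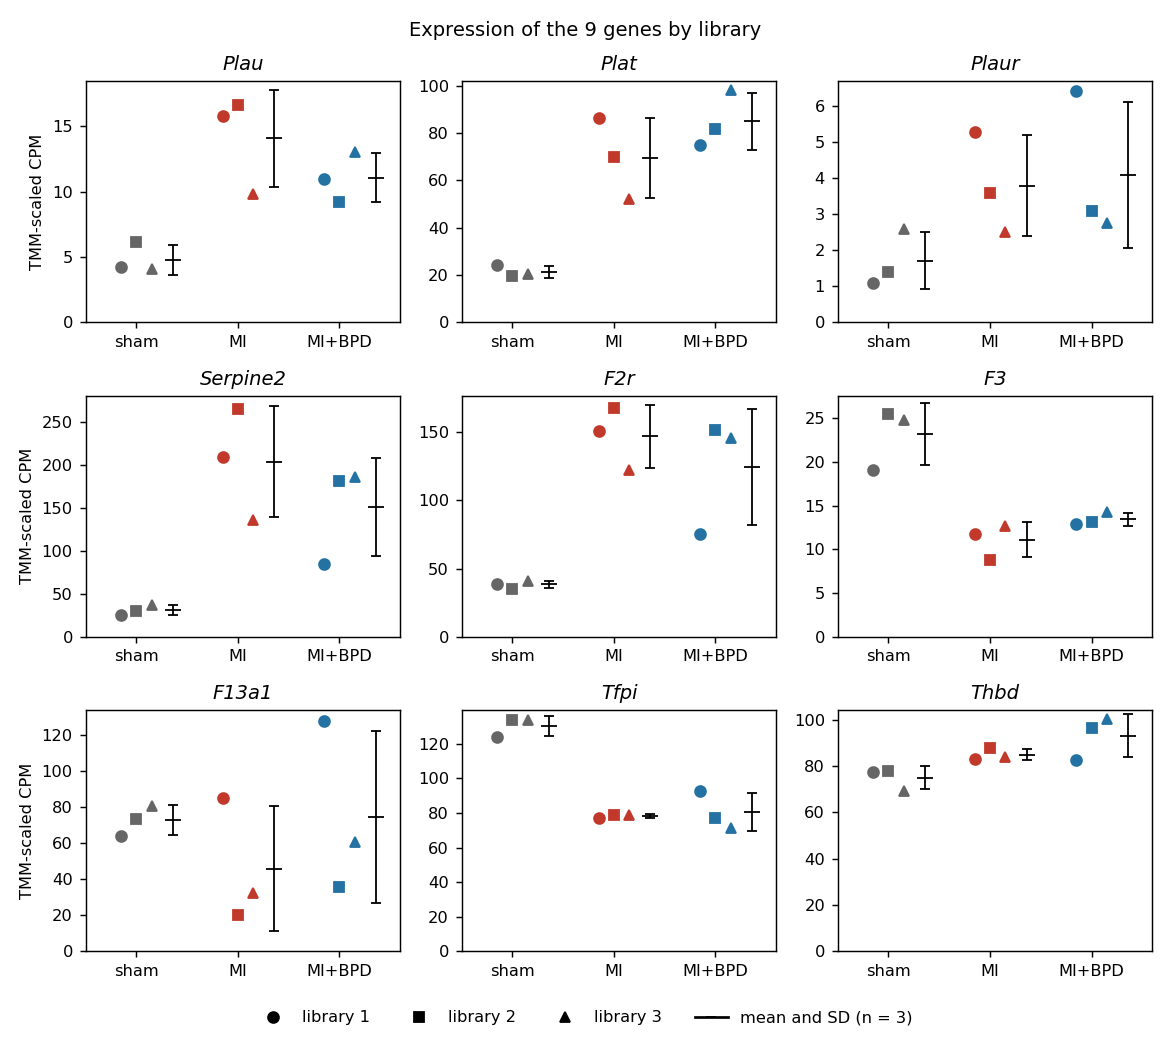
TMM-scaled CPM of each gene (vertical axes, linear from 0) in the 3 sham, 3 MI and 3 MI+BPD libraries; symbols are single libraries and bars show mean and SD. Plat, Serpine2 and F2r lie higher in all 6 infarct libraries than in sham, F3 and Tfpi lie lower, and F13a1 is spread widely in MI and MI+BPD.

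Of the plasminogen activators, Plat stood at 24.2, 19.4 and 20.4 CPM in the sham libraries. In MI it was 86.3, 69.9 and 52.1 CPM, and the MI+BPD libraries had 74.9, 81.8 and 98.1 CPM. Every infarct library lay above every sham library, and the MI and MI+BPD ranges overlapped. The rise in MI was 3.26-fold (95% interval 2.43 to 4.36, edgeR adjusted p = 7.99e-05), and in MI+BPD 3.98-fold against sham (2.97 to 5.34, edgeR adjusted p = 6.85e-05).

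Plau, the urokinase gene, had 4.21, 6.12 and 4.04 CPM in sham, 15.8, 16.6 and 9.85 CPM in MI, and 10.96, 9.24 and 13.1 CPM in MI+BPD. Here too all infarct libraries exceeded all sham libraries. Plau rose 2.95-fold in MI (2.01 to 4.32, edgeR adjusted p = 4.25e-04) and 2.32-fold in MI+BPD against sham (1.57 to 3.41, edgeR adjusted p = 2.83e-03). Between MI+BPD and MI its fold was 0.786 (0.554 to 1.12) while that of Plat was 1.22 (0.931 to 1.61), and neither passed.

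The ratio of the activators within a library does not depend on scaling. With 0.5 read added to each count, sham libraries had 0.176, 0.317 and 0.199 reads of Plau per read of Plat, MI libraries 0.183, 0.238 and 0.189, and MI+BPD libraries 0.147, 0.113 and 0.133. All 3 MI+BPD libraries thus had fewer Plau reads per Plat read than any other library. On the log2 scale the ratio was -2.94 ± 0.19 in MI+BPD and -2.31 ± 0.21 in MI (SD, n = 3 each), a difference of -0.63. The 2-sided exact permutation p of 0.1 is the smallest that 3 libraries against 3 can give, so 0.05 was out of reach, and it was 0.3 adjusted over 6 ratio tests. MI and sham differed by -0.14 in this ratio (exact permutation p = 0.7), and the sign turned to 0.11 without sham 2.

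Plaur encodes the cell surface receptor that holds urokinase. It had few reads: 12, 16 and 34 for sham, 133, 88 and 54 for MI, and 107, 60 and 54 for MI+BPD. In CPM the sham libraries had 1.10, 1.40 and 2.59, the MI libraries 5.27, 3.58 and 2.49, and the MI+BPD libraries 6.41, 3.08 and 2.74. MI 3 lay below sham 3, so sham and MI overlapped, while MI+BPD did not overlap sham. The folds were 2.20 in MI (1.09 to 4.43, edgeR adjusted p = 0.0461) and 2.35 in MI+BPD (1.16 to 4.77, edgeR adjusted p = 0.0395), both close to the threshold. The MI call ended without sham 1 (adjusted p = 0.146), sham 2 (0.132), MI 1 (0.158), MI 2 (0.0765) or MI+BPD 2 (0.0538). The MI+BPD call ended without sham 1 (0.126), sham 2 (0.118), MI 2 (0.0545) or MI+BPD 1 (0.160). Both calls also ended without the filter on low counts (0.0640 and 0.0579), and the MI call with median-ratio factors (0.0515).

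The largest change among the 9 genes in MI was that of Serpine2 (protease nexin-1), a serpin that inhibits thrombin, urokinase and tissue-type plasminogen activator. It stood at 25.3, 30.1 and 36.8 CPM in sham, 208.9, 265.6 and 136 CPM in MI, and 84.995, 181 and 186 CPM in MI+BPD. MI+BPD 1 was the lowest infarct library and still lay above all sham libraries. The rise was 6.62-fold in MI (3.88 to 11.3, edgeR adjusted p = 1.43e-04) and 4.90-fold in MI+BPD against sham (2.89 to 8.30, edgeR adjusted p = 6.38e-04). MI+BPD against MI gave a fold of 0.740 (0.452 to 1.21), which did not pass (edgeR adjusted p = 0.524).

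F2r encodes PAR1, the main thrombin receptor of fibroblasts and endothelium. In sham it had 38.9, 35.3 and 40.9 CPM, against 151.2, 168 and 122 CPM in MI, and 75.4, 151.4 and 146 CPM in MI+BPD. Among the 6 infarct libraries MI 2 was highest and MI+BPD 1 lowest, as for Serpine2. MI+BPD 1 also had the highest summed cardiomyocyte markers (46482 CPM) and the highest mitochondrial share (25.7%) of the infarct libraries. The part of this in its Serpine2 and F2r values was not tested. F2r rose 3.83-fold in MI (2.61 to 5.62, edgeR adjusted p = 1.50e-04) and 3.24-fold in MI+BPD against sham (2.21 to 4.74, edgeR adjusted p = 5.69e-04). MI+BPD against MI gave 0.845 (0.587 to 1.22). Over the 9 libraries, which share the same sham and infarct split, log2 CPM of F2r and Serpine2 had a Pearson r of 0.99, the highest among the members.

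**Figure D2:**
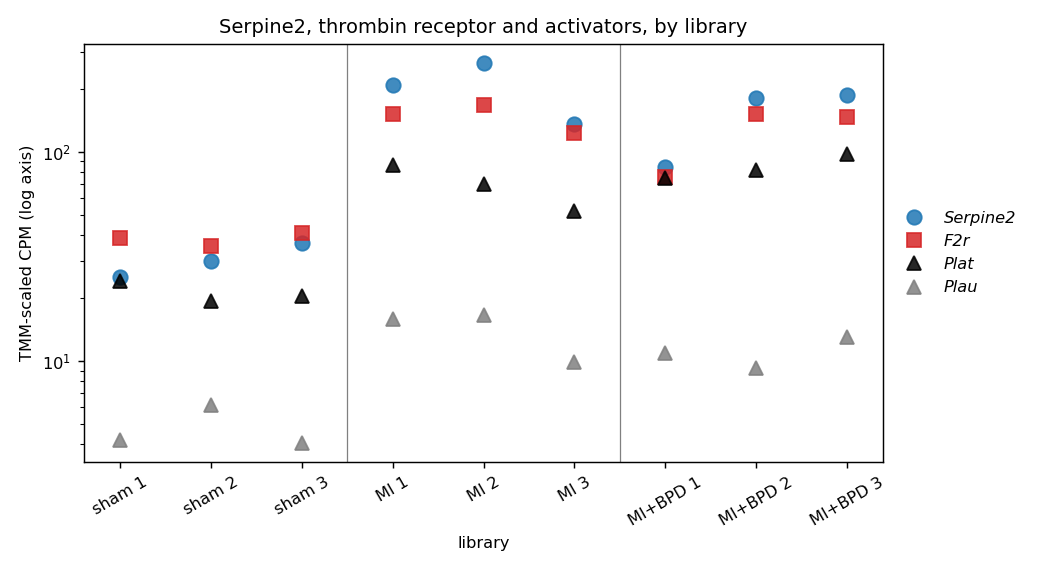
TMM-scaled CPM (log axis) of Serpine2, F2r, Plat and Plau in each of the 9 libraries (horizontal axis); each point is 1 library. All 4 genes lie higher in the infarct libraries than in sham, and in MI+BPD 1 Serpine2 (84.995) and F2r (75.4) are below their levels in every other infarct library.

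Because Serpine2 and F2r moved together, the 250 bases before their RefSeq gene starts (build GRCm38.p6) are shown 5′ to 3′, with those of F3, which moved the other way. RefSeq promoters were matched for 6 of the 9 genes. Capitals mark any match, on either strand, to 5 motifs: the GC box GGGCGG, the AP-1 motif TGANTCA, the cyclic AMP element TGACGTCA, the TATA motif TATAAA and the TEAD motif GGAATG. Serpine2 lies on the minus strand at chr1:79858666-79858915, F2r on the minus strand at chr13:95618467-95618716 and F3 on the plus strand at chr3:121723287-121723536.
Serpine2: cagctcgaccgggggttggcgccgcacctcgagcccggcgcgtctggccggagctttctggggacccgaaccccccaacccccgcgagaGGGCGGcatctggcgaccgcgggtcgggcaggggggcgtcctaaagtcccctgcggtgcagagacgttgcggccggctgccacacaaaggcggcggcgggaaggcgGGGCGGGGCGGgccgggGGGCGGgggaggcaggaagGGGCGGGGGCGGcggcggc
F2r: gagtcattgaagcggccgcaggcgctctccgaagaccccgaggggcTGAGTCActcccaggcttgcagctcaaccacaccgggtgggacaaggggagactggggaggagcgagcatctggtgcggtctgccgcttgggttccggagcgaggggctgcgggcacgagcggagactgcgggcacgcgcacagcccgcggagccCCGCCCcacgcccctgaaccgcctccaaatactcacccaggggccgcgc
F3: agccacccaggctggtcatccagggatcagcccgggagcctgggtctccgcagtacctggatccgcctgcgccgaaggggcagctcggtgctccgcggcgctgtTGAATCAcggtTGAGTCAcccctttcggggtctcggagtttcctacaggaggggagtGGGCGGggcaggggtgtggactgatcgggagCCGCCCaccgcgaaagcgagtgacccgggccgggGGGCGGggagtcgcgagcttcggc
Serpine2 held 6 GC boxes, of which the second and the third share 1 base, and no other motif. F2r held 1 GC box and 1 AP-1 motif, and F3 held 3 GC boxes and 2 AP-1 motifs. Plaur, which rose with Plau, held 3 GC boxes and 1 AP-1 motif, and each of 2 Tfpi promoters held 1 GC box, the first of them also a TATA motif. Both F13a1 promoters held none of the 5 motifs. Of 32851 RefSeq promoters of the same length, 32.7% held a GC box, 6.75% an AP-1 motif and 12.4% a TATA motif. No cyclic AMP or TEAD motif lay in any of the matched members' windows, and these are held by 1.55% and 12.6% of all promoters. Bases G and C made up 78.8% of the Serpine2 window, 70.8% of that of F2r and 70% of that of F3, against a median of 52.4% over all promoters. Both a gene that rose and one that fell held GC boxes and AP-1 motifs.

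Tissue factor, the cell surface starter of clotting encoded by F3, was lower after infarction. Its levels were 19.1, 25.5 and 24.9 CPM in sham, 11.7, 8.83 and 12.7 CPM in MI, and 12.9, 13.1 and 14.3 CPM in MI+BPD. No infarct library reached the lowest sham library. The fold was 0.478 in MI (0.375 to 0.608, edgeR adjusted p = 2.77e-04) and 0.580 in MI+BPD against sham (0.456 to 0.737, edgeR adjusted p = 2.35e-03). F3 was also the 1 member whose MI and MI+BPD libraries did not overlap, with MI+BPD higher, at a fold of 1.21 (0.954 to 1.54) that did not pass (edgeR adjusted p = 0.424); 13.9% of all genes tested did not overlap in that comparison.

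Tfpi, the endothelial inhibitor that shuts off tissue factor, was 123.6, 133.7 and 133 CPM in sham, 76.96, 78.98 and 78.9 CPM in MI, and 92.8, 77.3 and 71.3 CPM in MI+BPD. The 3 MI libraries lay close together and far below sham. The folds were 0.601 in MI (0.516 to 0.701, edgeR adjusted p = 1.91e-04) and 0.617 in MI+BPD (0.529 to 0.720, edgeR adjusted p = 5.21e-04). With library totals only, the log2 change of Tfpi in MI was 0.00028 (adjusted p = 0.998) and that of F3 -0.34 (0.0735). In MI+BPD against sham these were -0.18 (0.0901) and -0.26 (0.172), so both falls are falls relative to other genes. Measured from the median of all genes, the MI change was -0.81 for Tfpi and -1.14 for F3 under either scaling. The log2 ratio of F3 to Tfpi reads was -2.50 ± 0.17 in sham, -2.83 ± 0.28 for MI libraries and -2.57 ± 0.26 for MI+BPD libraries (SD, n = 3 each), with exact permutation p from 0.2 to 0.7 over the 3 comparisons.

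Thbd encodes thrombomodulin, which turns thrombin from a clotting enzyme into an activator of protein C. It was 77.6, 77.8 and 69.2 CPM in sham, 83.2, 87.8 and 83.7 CPM in MI, and 82.5, 96.3 and 100.3 CPM in MI+BPD. All infarct libraries exceeded all sham libraries by a small margin. In MI the fold of 1.13 (0.987 to 1.30) did not pass (edgeR adjusted p = 0.0963). It did pass with upper-quartile factors (0.0385), under limma-voom (0.0217) and when scaled by library totals (1.21e-04). Measured from the median of all genes, however, the log2 change of Thbd in MI was 0.11 both with TMM factors and with library totals. In MI+BPD against sham the fold was 1.24 (1.08 to 1.43, edgeR adjusted p = 0.0133). That call ended without sham 3 (0.0593), MI+BPD 2 (0.0501) or MI+BPD 3 (0.0590). Procr, the endothelial protein C receptor, had few reads and rose 3.14-fold in MI (1.61 to 6.15, edgeR adjusted p = 7.03e-03), from 1.09 ± 0.415 to 3.44 ± 1.60 CPM (SD, n = 3).

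Endothelial markers moved less than the fibroblast list, and downwards. Of 10, 7 fell and 0 rose in MI, with a median log2 change of -0.41, and 6 fell in MI+BPD against sham. Their summed level was 1333 to 1616 CPM in sham, 829 to 1072 in MI and 922 to 1113 in MI+BPD, with no marker at 0. The part of this in the Tfpi, F3 and Thbd values was not tested. Vwf, the endothelial and platelet clotting protein, was 46.4, 48.7 and 88.7 CPM in sham and 75.1, 58.8 and 59.1 CPM in MI, a fold of 1.05 (0.732 to 1.50) that did not pass (edgeR adjusted p = 0.806). This value depended on single libraries. Without sham 3 the log2 change was 0.43 (edgeR adjusted p = 0.0255) in MI and 0.70 (5.98e-03) in MI+BPD. Without sham 1, sham 2 or MI 1 the change in MI was -0.10, -0.076 or -0.057, which did not pass.

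F13a1, the catalytic chain of factor XIII and a gene of tissue macrophages, showed the widest spread. It was even in sham, at 64.0, 73.7 and 80.7 CPM. In MI it was 85.3, 19.99 and 32.4 CPM, while MI+BPD libraries had 127.9, 35.5 and 60.4 CPM, so MI 1 lay above all sham libraries and MI 2 far below them. The highest library was 4.27 times the lowest in MI and 3.61 times in MI+BPD, against 1.26 times in sham. No comparison passed: the fold was 0.631 in MI (0.267 to 1.49, edgeR adjusted p = 0.305), 1.02 in MI+BPD against sham (0.435 to 2.40, edgeR adjusted p = 0.965) and 1.62 in MI+BPD against MI (0.690 to 3.81, edgeR adjusted p = 0.551). Without MI 1 the log2 change in MI against sham was -1.48 and passed (edgeR adjusted p = 0.0260). Without both MI 1 and MI+BPD 1 it was -1.50 in MI (1.33e-03) and -0.64 in MI+BPD (0.0580). Limma-voom, which weights libraries, gave -1.41 in MI (adjusted p = 0.0104).

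Genes of resident macrophages were high in the same infarct libraries as F13a1. Cd163, a scavenger receptor, stood at 25.6 CPM in MI 1, 4.97 in MI 2 and 9.67 in MI 3, and at 25.6, 7.44 and 8.33 in MI+BPD. Lyve1 was 27.5, 8.10 and 12.3 CPM in MI and 41.3, 20.0 and 23.0 in MI+BPD, and Folr2 and Cbr2 were likewise highest in MI 1 and MI+BPD 1. All 6 resident macrophage markers were highest in library 1 of both infarct groups. Mrc1 and Timd4 differed from F13a1 in being lowest in MI 3, and Timd4 also in MI+BPD 3. Of the 9 general macrophage markers 8 were highest in MI 1 too and all were lowest in MI 3, but within MI+BPD Mertk alone was highest in library 1 (23.42 against 23.41 CPM in library 2) and the other 8 in library 3. Csf1r, for example, was 159.2, 123.6 and 92.97 CPM in MI and 122.3, 105.4 and 125.9 in MI+BPD, and Adgre1, the exception in MI, was 76.0, 87.1 and 60.5 CPM in MI. All 9 macrophage markers rose in MI, with summed levels of 331 to 397 CPM in sham, 707 to 1205 in MI and 903 to 1167 in MI+BPD. Of 6 resident macrophage markers 1 rose and 0 fell, with summed levels of 127 to 157, 103 to 219 and 136 to 272 CPM. No marker of either macrophage list was at 0 in a group. Other lists also peaked in library 1 of both infarct groups, so this pattern was not particular to resident macrophage genes. Summed mesothelial markers were highest in MI 1 (184.7 CPM) and MI+BPD 1 (74.4 CPM) within their groups. Summed neutrophil markers were 52.9 CPM in MI 1, against 13.6 in MI 2 and 9.07 in MI 3. In MI+BPD 1 they were 19.5 CPM, against at most 11.9 in the rest of that group. The part of any of these lists in the F13a1 values was not tested.

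**Figure D3:**
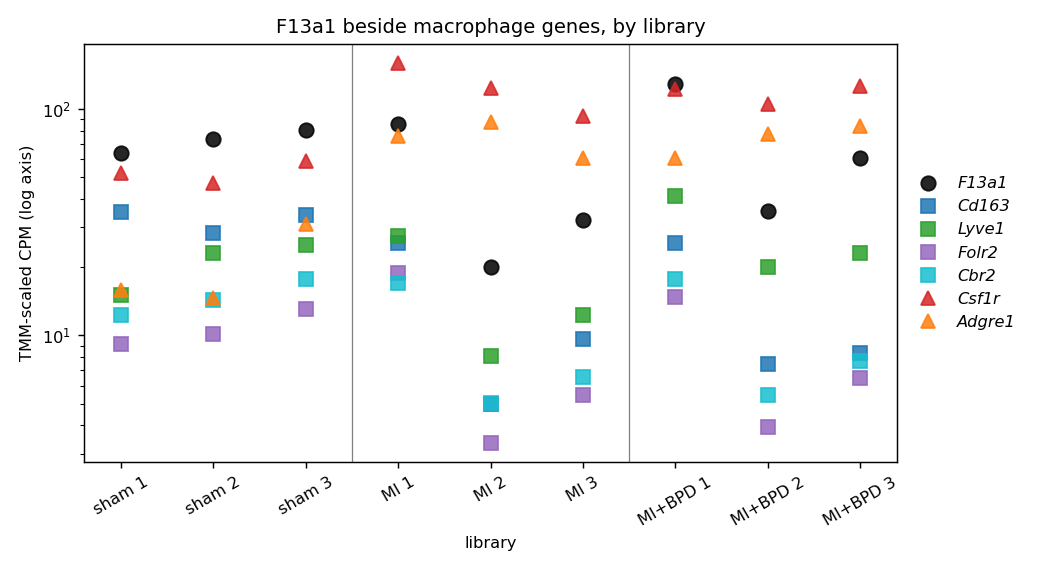
TMM-scaled CPM (log axis) of F13a1 (black circles), resident macrophage genes (squares) and general macrophage genes (triangles) in each of the 9 libraries (horizontal axis); each point is 1 library. F13a1 and the 4 resident macrophage genes plotted (of 6 listed) are highest in library 1 and lowest in library 2 of both infarct groups; Csf1r is highest in MI 1 and MI+BPD 3, and Adgre1 in MI 2 and MI+BPD 3.

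Levels between genes were compared per kilobase of exon, with all GENCODE M21 exons of a gene merged. The transcripts expressed and the authors' annotation are not known, so the order between genes depends on these lengths. In sham the inhibitors of clotting led, with Tfpi at 23.8 and Thbd at 20.1 CPM per kb and no overlap between them. F2r (11.5), F13a1 (10.8) and F3 (9.17) followed, and neighbours among these 3 overlapped. Serpine2 (3.71) and Plat (3.42) overlapped each other, and Plau (2.02) and Plaur (0.648) were lowest. In MI the order changed: F2r led at 44.1 CPM per kb, above Serpine2 (24.6) and Thbd (22.8), which overlapped, then Tfpi (14.3). Plat (11.1), F13a1 (6.81), Plau (5.95) and F3 (4.39) followed, each overlapping the one before it from F13a1 on, and Plaur (1.44) was last. In MI+BPD the first 8 genes each overlapped their neighbour, from F2r (37.3) through Thbd (25.0), Serpine2 (18.2), Tfpi (14.7), Plat (13.6), F13a1 (11.1) and F3 (5.32) to Plau (4.68), with Plaur (1.56) below.

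Against sham, MI+BPD had 6 of the 9 genes higher and 2 lower, 1 did not pass, and 8 did not overlap. Among all genes tested 59.6% were called, 31.8% higher and 27.8% lower, 68.5% did not overlap and 63.9% had an unadjusted p under 0.05. The members' median log2 change was 1.21, against 0.04 over all genes tested. This comparison shares its sham libraries with MI against sham. Between MI+BPD and MI, 0 of 9 passed in edgeR, 0 had an unadjusted p under 0.05 (against 13.5% of all genes), and 0 passed in DESeq2 or limma-voom; of all 15138 genes 0% were called in edgeR. The log2 changes ran from -0.43 (Serpine2) to 0.70 (F13a1). The intervals still allow sizeable differences for some genes: 0.452 to 1.21 for the fold of Serpine2 and 0.568 to 2.02 for Plaur, against the narrow 0.882 to 1.197 for Tfpi and 0.955 to 1.26 for Thbd.

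**Figure D4:**
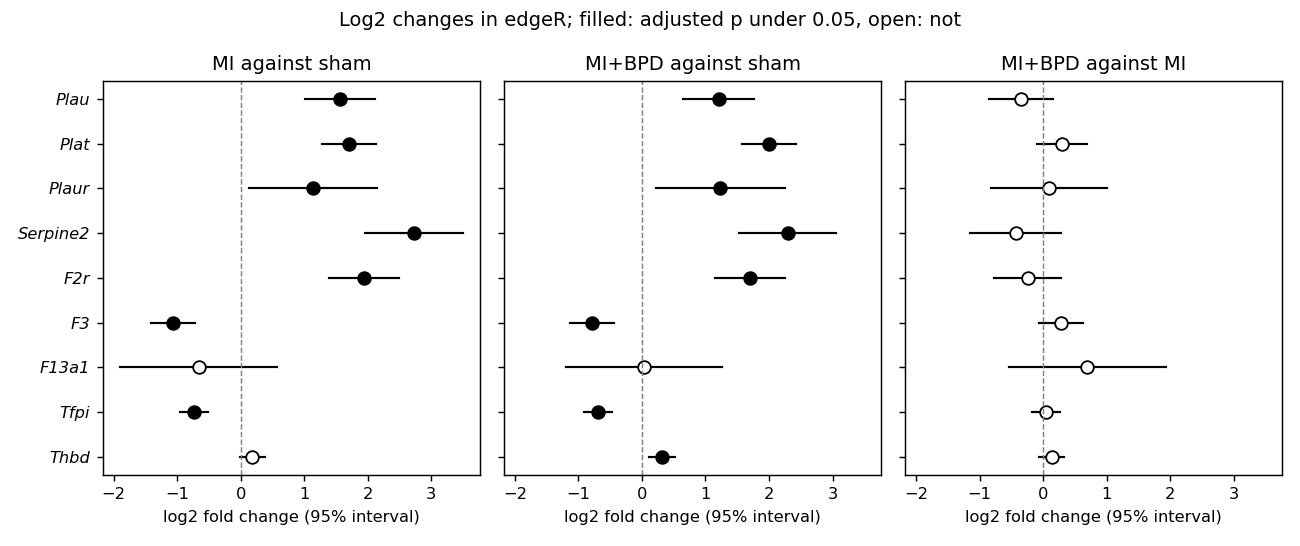
Log2 fold change (points, horizontal axes) with 95% interval (lines) of each of the 9 genes in 3 comparisons; filled points passed an edgeR adjusted p under 0.05. In the MI+BPD against MI panel every interval spans 0.

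Of 27 other listed genes of the plasminogen system 19 were tested. In MI 14 rose, 2 fell and 3 did not pass, where 37% of all genes rose and 31.9% fell, with a median log2 change of 1.69 against 0.07 over all genes tested. Anxa2 and S100a10, which together form a plasminogen receptor, rose 3.94-fold (3.34 to 4.66) and 2.47-fold (2.03 to 2.995). Mrc2, a collagen receptor that binds the urokinase receptor, rose 8.92-fold (6.74 to 11.8), and Lrp1, which clears activator and inhibitor complexes, rose 6.14-fold (4.37 to 8.63). The integrin chain Itgav, which partners the urokinase receptor, rose 3.22-fold (2.66 to 3.89). Vldlr, another clearance receptor, fell to 0.328 of sham (0.233 to 0.461), and Vtn (vitronectin, a matrix and plasma protein that binds the urokinase receptor) to 0.610 (0.435 to 0.855, edgeR adjusted p = 0.0151). The Vtn call ended without sham 1 (0.0571), MI 1 (0.0515) or MI 2 (0.0571), and its log2 change was 0.0010 with library totals only. Against sham, 14 rose and 1 fell in MI+BPD, where 31.8% of all genes rose and 27.8% fell. The median log2 change there was 1.49, against 0.04 over all genes tested. Between MI+BPD and MI 0 of 19 passed; the smallest p belonged to S100a10, at 1.22-fold (1.01 to 1.46, edgeR adjusted p = 0.369), and Tgfb1, at 0.818 (0.674 to 0.992, edgeR adjusted p = 0.369). Between MI+BPD and MI this list had 1 call in limma-voom, and 3 calls in edgeR without MI 3.

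Among 30 other clotting factors and inhibitors 14 were tested, of which 8 rose and 0 fell in MI (median log2 change 1.04) and 7 rose in MI+BPD against sham. The share called in either direction was below that of all genes tested in MI (68.9%) and in MI+BPD (59.6%). By direction, 37% of all genes rose and 31.9% fell in MI, and 31.8% rose and 27.8% fell in MI+BPD. Pros1, the cofactor of protein C and of Tfpi, rose 2.38-fold (1.97 to 2.88) and Gas6, its relative, 2.90-fold (2.23 to 3.77). The chaperones Pdia3 and P4hb, protein disulfide isomerases, rose 2.26-fold (1.82 to 2.81) and 1.86-fold (1.57 to 2.20). With library totals only, 14 were called in MI and 13 in MI+BPD against sham, all of them higher. Over all 15138 genes, that scaling called 12253 in MI (10488 higher) and 10514 in MI+BPD (9131 higher). In the list of other protease receptors and their signalling partners 9 of 14 were tested, and 6 rose and 1 fell in MI. The share called in either direction was near the 68.9% of all genes, of which 37% rose and 31.9% fell. F2rl1 (PAR2), the relative of F2r cut by tissue factor complexes, rose 2.96-fold (1.88 to 4.64, edgeR adjusted p = 1.06e-03) from 1.24 to 3.72 CPM. The arrestins Arrb1 and Arrb2, which desensitise such receptors, rose 2.11-fold (1.81 to 2.45) and 2.73-fold (2.08 to 3.59), and the G protein chain Gna13 and the exchange factor Arhgef1 1.41-fold (1.25 to 1.60) and 1.55-fold (1.36 to 1.78). Gna12 fell to 0.566 (0.478 to 0.671), and did not pass with library totals only (adjusted p = 0.321). P2ry12, the ADP receptor of platelets and microglia, rose 1.996-fold in MI (1.42 to 2.81) and 2.54-fold in MI+BPD against sham (1.81 to 3.58); between MI+BPD and MI its fold was 1.27 (0.933 to 1.74), which did not pass. No gene of these lists passed between MI+BPD and MI. The smallest p among clotting factors were those of Gas6, at a fold of 0.862 (0.667 to 1.11, edgeR adjusted p = 0.539), and of Tfpi2, a relative of Tfpi, at 0.850 (0.640 to 1.13, edgeR adjusted p = 0.546). Among receptors and partners they were those of Arhgef1, at 0.838 (0.734 to 0.957, edgeR adjusted p = 0.369), and Gna12, at 1.17 (0.993 to 1.39, edgeR adjusted p = 0.376).

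Transcripts of some plasma clotting proteins made by liver, among them Plg, F2 and Fgb, were nearly absent outside 1 library. Of 71 listed genes 29 did not pass the filter, and 15 of these had their highest count in MI 2. Plg, the plasminogen gene itself, had 57 reads in MI 2 and 0 in the other 8 libraries; 3 reads over the sham group, the limit that a count of 0 allows, would be 0.0846 CPM. F2 (prothrombin) had 38 reads in MI 2 and at most 1 in any other library. The fibrinogen chain Fgb had 86 reads in MI 2 and at most 1 elsewhere, Fga had 12 and at most 1, and F12 had 23 and 0. The liver markers Alb and Apoa1 had 559 and 404 reads in MI 2 and at most 2 in any other library, and 5 hepatocyte markers summed to 60.4 CPM there against 0.175 to 0.719 CPM elsewhere. Alb, Serpina1a and Apoc3 were at 0 in all sham libraries. F10, the protease activated by tissue factor, was less restricted, with 28 reads in MI 2, 18 in MI+BPD 1, 8 in MI 1 and at most 3 in the others. Serpinb2, an inhibitor of urokinase, had 197 reads in MI+BPD 1 and 0 to 12 elsewhere. None of these genes was tested, and what brought them into single libraries was not tested. Platelet and megakaryocyte markers summed to 7.78 to 14.5 CPM in sham, 12.2 to 15.4 in MI and 16.1 to 19.6 in MI+BPD, with none of 7 at 0 in a group.

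**Figure D5:**
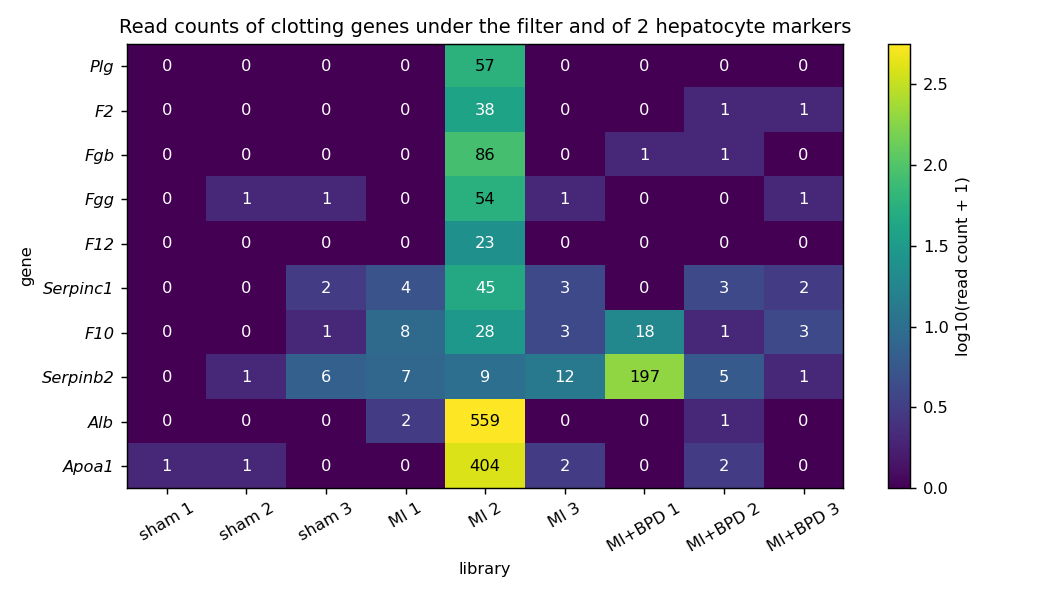
Read counts (numbers in cells; colour is log10 of the count plus 1) of 8 plasminogen and clotting genes that did not pass the filter, and of the hepatocyte markers Alb and Apoa1, in each library (columns). Plg, F2, Fgb, Fgg and F12 have nearly all their reads in MI 2, as do Alb (559) and Apoa1 (404), while Serpinb2 has 197 in MI+BPD 1.

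The genes whose log2 CPM ran most alike over the 9 libraries are given as a description, since all points share the split into sham and infarct. For Plat these were Lamp2, a lysosomal membrane protein (Pearson r = 0.995), and Bnc2 (0.992). For Plau the transcription factor gene Junb (0.983) is given, and for Plaur they were Zcchc24 (0.970) and Rbbp8 (0.942). Serpine2 ran with Id3 (0.997) and Etv6 (0.996), and F2r with Sdf4 (0.999) and Txndc16 (0.998). F3 ran with Map2k5 (0.977) and Tma16 (0.975), Tfpi with Smtn (0.995) and Gdpd5 (0.990), and Thbd with Sec22c (0.975) and Ttll5 (0.962). The likeness was lowest for F13a1, with the metalloreductase gene Steap4 (0.954) and Ncoa4 (0.927), the receptor for ferritin breakdown. Steap4 stood at 67.9, 40.0 and 54.4 CPM in MI and 100.3, 47.6 and 59.2 CPM in MI+BPD, with its highest infarct values in MI 1 and MI+BPD 1.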

How the data were processed

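The deposited table holds raw counts, whole and not normalized, for each gene symbol, with a different total in each library. Per the submitters' processing notes STAR was used, with no version, and the genome builds mm10, GRCm39 and mm39 are named without a role. Which annotation, counter and strand setting the authors used was not given in the sources used here, so the only coordinates printed are those of RefSeq promoters. In GENCODE M21, 74 exon bases of F13a1 overlap an antisense gene, and without strand these reads cannot be told apart. Per the labels, TRIzol was used for extraction, the RNA integrity number was above 7.0, and reads were paired, of 150 bp.

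The tests used edgeR 4.0.16 in R 4.3.3, with TMM factors, filterByExpr at a minimum count of 10 and total of 15, and its robust quasi-likelihood model over the 3 groups (9 libraries, 6 residual degrees of freedom). Tests were 2-sided, p was Benjamini-Hochberg adjusted over 15138 genes, and calls were made under 0.05. Intervals are 95% intervals from the fit. Alternatives were DESeq2 1.42.0, limma-voom (limma 3.58.1), other scaling and filters, a replicate block and libraries left out; leaving out MI 1 and MI+BPD 1 together was added after seeing the data. The procedure was also run on simulated counts in which few genes changed, which does not cover the wide shift between sham and infarct libraries. The outcome of that run is not reported here. Members and lists were chosen with earlier results of these data known, and lists come from textbook knowledge. Genes named besides the members were, per list and comparison, up to 4 called genes of smallest adjusted p in each direction at a mean level of 1 CPM or more in the higher group (up to 2 of smallest p where none was called), direct partners of the members, and the 2 genes of highest Pearson r per member with a mean of at least 5 CPM; some genes that this rule names are not reported here. Other pathway genes with reads in single libraries (Fgb, Fgg, F12, Serpinc1, Serpinb2), single macrophage markers and Steap4's values were named after their values were seen. The labels name no molecular identifiers, so counting limits cover counting error only.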

Additional observations from a re-analysis of the deposited data

How the results depend on the processing

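The number of the 9 genes called stayed within 1.5 times its value under the 21 alternatives: 6 to 9 in MI against sham, 6 to 8 in MI+BPD against sham and 0 in MI+BPD against MI. With 1 library left out it was 6 to 7, 7 to 8 and 0. Deviations of same-numbered MI and MI+BPD libraries correlated at 0.143, 0.194 and -0.158, and those of differently numbered ones at -0.277 to 0.207. With 3 libraries per group this cannot decide whether the replicate number pairs libraries. With a replicate block 6, 7 and 0 members were called. The block ended both Plaur calls (edgeR adjusted p = 0.0679 and 0.0637). Over all genes, MI+BPD against MI gave 51 calls in DESeq2, 992 in limma-voom and 1353 without MI 3, against 0 in edgeR with 2043 genes at an unadjusted p under 0.05; the cause was not tested. Values that changed sign, of genes that were not called except Tfpi and Vtn in MI against sham, were as follows, and the cause was not tested. In MI against sham with library totals only, F13a1 was at 0.10, Tfpi at 0.00028 and Vtn at 0.0010. Vwf ran from -0.10 to 0.43 with 1 library left out and was at -0.080 without MI 1 and MI+BPD 1. In MI+BPD against MI, Plaur was at -0.27 in limma-voom, -0.16 with library totals only, -0.40 to 0.41 with 1 library left out (lowest without MI+BPD 1) and -0.077 without MI 1 and MI+BPD 1. Tfpi was at -0.054 in limma-voom, -0.010 with upper-quartile factors, -0.18 with library totals only, -0.095 to 0.12 with 1 library left out and -0.10 without MI 1 and MI+BPD 1, and Thbd at -0.068 with library totals only. Without MI 1 and MI+BPD 1, F2r was at 0.023 and Procr at 0.089; with 1 library left out Procr ran from -0.46 to 0.21. In MI+BPD against sham, F13a1 was at -0.0033 in DESeq2, -0.51 in limma-voom, -0.0062 with median-ratio factors, -0.26 with a replicate block, -0.64 to 0.37 with 1 library left out and -0.64 without MI 1 and MI+BPD 1. With 1 library left out, the log2 ratio difference of Plau to Plat ran from -0.31 to 0.11 in MI against sham, -0.72 to -0.52 in MI+BPD against MI and -0.95 to -0.52 in MI+BPD against sham. That of F3 to Tfpi ran from -0.44 to -0.17, 0.10 to 0.40 and -0.20 to 0.06. Depth was lowest for Plaur, at 12 to 34 reads per sham library.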
